A study of Homo sapiens with 60 samples.

Results

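The response of HB4a cells to rapamycin alone was measured on 10 of the 60 arrays of the series. HB4a is a line of normal human breast epithelial cells, and it was represented here by 1 line only. The 5 treated arrays came from cells given rapamycin at 20 nM and the 5 control arrays from cells given the vehicle, DMSO. Both groups grew in RPMI medium with fetal bovine serum, glutamine, insulin and hydrocortisone, so neither was starved of serum or insulin. The length of the treatment was not given in the sources used here. Arrays were taken by their titles, which number 5 independent experiments as 1, 2, 3, 4 and 6, and the vehicle and rapamycin arrays of 1 number were treated as a pair. The other 50 arrays held HB4a with doxorubicin at 30 nM or with both drugs, and the same 4 treatments in C5.2, a derivative of HB4a that overexpresses HER2, and in SKBR3, a breast carcinoma line that does so too.

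Rapamycin binds the small protein FKBP12 (gene FKBP1A), and the complex inhibits mTORC1, the mTOR kinase complex built around RAPTOR. mTORC1 promotes protein, lipid and nucleotide synthesis and glycolysis when growth factors and amino acids are plentiful, and it restrains signalling from the insulin receptor through S6 kinase and GRB10. Release of that restraint on insulin receptor substrates and on the ERK cascade is a known effect of mTORC1 inhibitors in epithelial cells.

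Values are log2 signals on Affymetrix U133 Plus 2 arrays, so a difference of 1 is a 2-fold change. Each of 19775 genes was read from its brightest probe set over the 60 arrays. Of these genes, 5571 exceeded log2 5 on at least 5 of the 10 arrays and were tested. "Rose" and "fell" below mean an adjusted p under 0.05 in limma with the pair as a replicate block and Benjamini-Hochberg adjustment. An array has no read depth, and the precision is limited by the 5 arrays per group.

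The cells carried the markers of epithelium. All 6 epithelial markers passed the filter, with KRT18 at 11.65 and CDH1 at 9.27 in vehicle. None of the 4 leukocyte markers with a value passed it, PTPRC standing at 0.63 and LYZ at 0.38, and none of the 4 endothelial markers did. Of 7 fibroblast markers 2 passed, VIM and DCN, while COL1A2 was at 1.01 and LUM at 0.71. With rapamycin VIM rose by 0.29 and DCN fell by 0.44 (adjusted p = 0.285 without pairs 1 and 4). KRT5 at 10.07 and KRT19 at 10.47 were both high in vehicle, and KRT14 was at 1.0.

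Rapamycin arrays 1 and 4 stood apart. Array 1 did so by its distance from the group mean, and array 4 mainly by the 3' minus 5' signals given below. The root mean square deviation from the group mean was 0.49 on rapamycin array 1 and 0.28 on rapamycin array 4, against 0.15 to 0.27 on the other 8 arrays. On the first principal component, with 52.5% of the variance, rapamycin array 1 lay at 40.5 and the others between -18 and 11.7. On rapamycin array 4 the GAPDH 3' probe set exceeded the 5' probe set by 1.67, against 0.2 to 0.43 elsewhere. The actin 3' minus 5' signal, another measure of RNA or labelling quality, was 4.1 there and 3.31 on vehicle array 4, against 1.41 to 2.66 on the others.

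**Figure D1:**
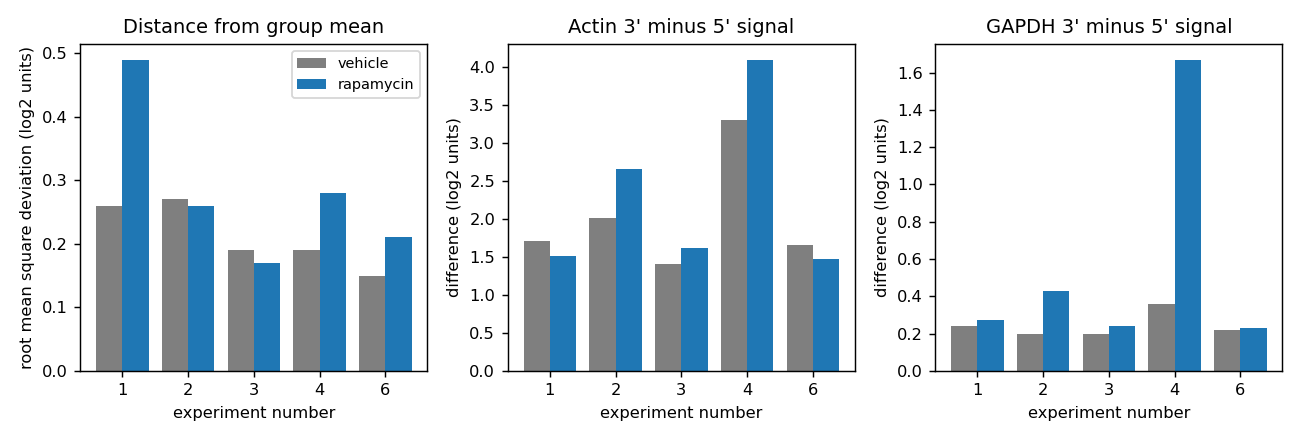
The 3 panels give, for each of the 10 arrays by experiment number, the root mean square deviation from the group mean over the tested genes, and the 3' minus 5' signal of actin and of GAPDH, all in log2 units, with vehicle in grey and rapamycin in blue. Rapamycin array 1 has the largest deviation, 0.49, and rapamycin array 4 the largest 3' minus 5' signals, 4.1 and 1.67.

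The pairs carried their distance in opposite directions. In pair 1, 28 tested genes had a difference more than 1 above the median of the other pairs and 6 had one more than 1 below it. In pair 4 these counts were 0 and 32, and in each other pair at most 3 either way. FOS, for example, differed by -2.62 in pair 1 and by -0.93 to 0.17 in the others, and EIF5A, a translation factor, by -2.61 in pair 4 and by -0.89 to 0.05 in the others. EIF5A fell by 0.79 (adjusted p = 0.0122), but its adjusted p was 0.173 without pairs 1 and 4 and 0.333 with limma's robust variance estimate. The part of array quality in these genes was not tested.

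Promoter sequences are shown for 4 genes that the results below turn on, because they hold letters known as binding motifs of factors linked to these gene groups. They come from RefSeq promoters on GRCh38.p14, are written 5′ to 3′ on the gene's strand, and have the motif in capitals. The motif ACGTG, the core bound by hypoxia-inducible factor and part of the E-box bound by MYC, was searched on both strands, so CACGT is a match and CACGTG holds 2 that overlap. HK2, at chr2:74833883-74834098 on the plus strand, and LDHA, at chr11:18394363-18394509 on the plus strand, both encode enzymes of glycolysis.
HK2: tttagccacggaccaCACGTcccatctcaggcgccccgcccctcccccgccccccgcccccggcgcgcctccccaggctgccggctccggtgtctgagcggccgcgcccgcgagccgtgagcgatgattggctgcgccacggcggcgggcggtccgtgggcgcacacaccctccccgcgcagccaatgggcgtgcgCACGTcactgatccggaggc
LDHA: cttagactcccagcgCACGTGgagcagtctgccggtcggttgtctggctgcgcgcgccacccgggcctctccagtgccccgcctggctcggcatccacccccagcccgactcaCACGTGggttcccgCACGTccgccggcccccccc

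EGR1 and MAFF are immediate-early transcription factors. EGR1, at chr5:138465359-138465420 on the plus strand, is shown with its 2 matches to the CArG box, the motif of serum response factor. MAFF, at chr22:38201925-38201962 on the plus strand, is shown with its match to TGACGTCA, the palindromic cAMP response element bound by CREB and ATF factors.
EGR1: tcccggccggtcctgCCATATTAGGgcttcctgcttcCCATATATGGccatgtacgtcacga
MAFF: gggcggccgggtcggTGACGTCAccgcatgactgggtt

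In the 250 bases before the start site, ACGTG occurred in 18.7% of 27305 promoters and in 24.8% of the promoters of tested genes. It was in 7 of the 19 tested glycolysis promoters (36.8%), all 7 among the 13 whose genes fell. Among hypoxia targets outside glycolysis it was in 7 of 14 tested promoters. These included 2 of the 4 whose genes fell and none of the 3 whose genes rose. The CArG box occurred in 1.14% of all promoters, in 0.978% of those of tested genes and in those of EGR1 and SRF among the 7 immediate-early promoters whose genes rose. It was in none of the 8 promoters of YAP and SRF targets whose genes rose, and in 1 of the 12 tested. TGACGTCA occurred in 1.77% of all promoters, in 3.11% of those of tested genes and in 1 of those 7. Of the other 4 of the 7 motifs searched on both strands, TCACNCCAC, from the sterol regulatory element, was in none of 10 sterol synthesis promoters, in 0.875% of all and in 0.872% of those of tested genes. TGTTTAC, from the FOXO motif, was in 2.98% of all, in 1.64% of those of tested genes and in that of TXNIP among 13 of the insulin and FOXO list. TGATGNAAN, from the element bound by ATF4, was in 3.18% of all, in 1.34% of those of tested genes and in that of ASNS among 13 of the ATF4 list. GGGNNNNCC, from the NF-kB motif, was in 47.7% of all, in 62.4% of those of tested genes and in 3 of 4 of the inflammatory list. A match describes the letters and is no evidence of binding in these cells.

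With rapamycin 736 genes rose and 406 fell, which is 13.2% and 7.29% of the 5571 tested, or 20.5% in all. Each list count below is to be read against these shares. Most changes were small. The median size among them was 0.40, and 38 genes, 0.682% of those tested, changed by 2-fold or more, 32 upward and 6 downward. In 934 of the 1142 all 5 pairs moved the same way. The 2 groups of 5 arrays did not overlap in 237 tested genes (4.25%), of which 216 were among the 1142.

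These counts depended on the pairing. Without the replicate block 70 genes rose (1.26%) and 35 fell (0.628%), 1.88% of those tested, and all 105 were among the 1142. Without pairs 1 and 4, 703 rose (12.6%) and 184 fell (3.3%), 15.9% in all. Of these 887, 708 were among the 1142, and all 1142 kept their sign, which the shared pairs favour. Leaving out 1 pair at a time gave 696 without pair 3, 805 without pair 2 and 977 to 1124 without the others. The excess of rises over falls depended on the scaling: 64.4% of the 1142 rose, but 45.7% of the changed genes rose after each array was centred on its median and 46.1% after quantile normalization. Centring moved all differences down by 0.048. In these fits limma draws each gene's spread towards that of all genes, with 18.1 prior degrees of freedom against 4 of the gene's own, so 1 deviant pair weighs little in a gene's error. With the robust estimate, which frees genes of unusual spread from this, 1158 passed, 1091 of them among the 1142.

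The 2 largest rises were in PTGS2 and CCN2. PTGS2, the inducible cyclooxygenase of prostaglandin synthesis, was 5.27, 4.65, 4.68, 5.0 and 4.35 in vehicle and 8.05, 7.03, 6.93, 6.99 and 6.27 with rapamycin in experiments 1, 2, 3, 4 and 6. Every treated array lay above every control array. The difference was 2.26 ± 0.12 (SE, n = 5 pairs; limma, adjusted p = 9.97e-12), a 4.8-fold rise. CCN2, a matrix-associated growth factor regulator and target of YAP, was 6.07, 6.27, 6.54, 7.18 and 5.78 in vehicle and 8.12, 8.39, 9.12, 8.77 and 8.7 with rapamycin. Again the groups did not overlap, and the rise was 2.25 ± 0.13 (adjusted p = 3.5e-11). It was 2.55 without pairs 1 and 4.

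The remaining 13 of the 15 largest rises ran from 1.90 to 1.32. They were DUSP5, RGCC, TNFAIP3, INHBA, ATF3, HSD3B1, RND3, KLF6, AMIGO2, MAFF, PHLDB2, EDN1 and UBALD2. INHBA encodes the activin A subunit, HSD3B1 a steroid dehydrogenase, RND3 an antagonist of RhoA and EDN1 the peptide endothelin-1. In each of the 13 the groups did not overlap, and each remained past the threshold without the replicate block and without pairs 1 and 4. The size of the EDN1 rise depended on the probe set. The one used gave 1.33, from 5.35 in vehicle, and another gave 0.98. A further EDN1 probe set, brighter in HB4a vehicle at 6.59, differed by only 0.08. RGCC, INHBA and RND3 passed the filter only through the rapamycin group, and 1 of the falls below, PKIB, only through vehicle. A gene that passes through 1 group alone has to differ, and all 13 such genes were called, among them IRS1 and GABARAPL1 of the lists below.

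**Figure D2:**
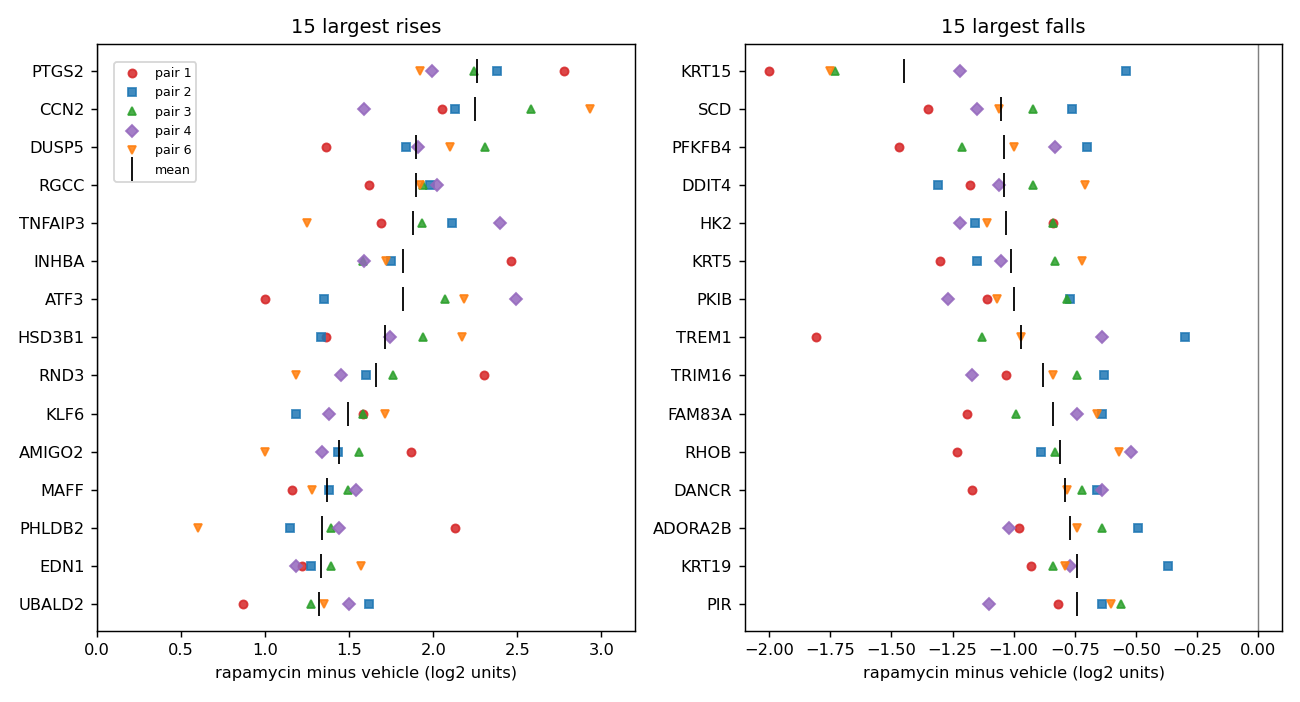
Each point is the difference between the rapamycin and the vehicle array of 1 experiment, in log2 units, for the 15 largest rises (left) and falls (right), and the black bar is the mean of the 5 pairs. All 5 points lie on the same side of 0 for each gene, which the choice of these genes required, and no leading rise or fall rests on pair 1 or pair 4 alone.

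The 15 largest falls included KRT15, which had the largest difference, and DDIT4. KRT15, a keratin of basal cells, was 6.81, 6.24, 7.77, 7.02 and 7.41 in vehicle and 4.81, 5.7, 6.04, 5.8 and 5.66 with rapamycin, a fall with no overlap (-1.45 ± 0.14, adjusted p = 1.78e-07). DDIT4, the stress protein REDD1 that inhibits mTORC1, was 10.62, 10.64, 10.95, 10.8 and 10.75 in vehicle and 9.44, 9.33, 10.03, 9.74 and 10.04 with rapamycin. Its groups were also apart, and the difference was -1.04 ± 0.07 (adjusted p = 3.03e-10). The other 13 ran from -1.05 to -0.74 and were SCD, PFKFB4, HK2, KRT5, PKIB, TREM1, TRIM16, FAM83A, RHOB, DANCR, ADORA2B, KRT19 and PIR. All 15 held without pairs 1 and 4, while TREM1 (adjusted p = 0.311), RHOB (0.0985), TRIM16 (0.0592) and ADORA2B (0.0564) did not pass without the replicate block on the same 10 arrays. With all 20 HB4a arrays and no block RHOB (0.0443), TRIM16 (0.0216) and ADORA2B (0.00763) passed, and TREM1 (0.258) did not.

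Of the mTOR pathway itself, little changed at the level of RNA. Of 44 genes listed as complexes and regulators of mTOR, 41 had a value and 21 were tested: 1 rose and 2 fell, with a median difference of -0.07 against 0.01 over all genes tested (1 and 5 after centring). SGK1, a kinase activated by mTORC2, rose by 0.98 ± 0.08 (adjusted p = 6.03e-09). DDIT4 fell as above, and AKT1S1, the mTORC1 component PRAS40, fell by 0.53 (adjusted p = 0.00263; 0.0751 without pairs 1 and 4). FKBP1A, which encodes the drug's binding protein, differed by -0.04 ± 0.10 (adjusted p = 0.814). MTOR (4.04 in vehicle, 4.03 with rapamycin) and RPTOR (3.79 and 3.78) did not pass the filter.

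Genes of insulin signalling and targets of FOXO factors, which are active when AKT is not, moved mostly upward. Of 23 with a value 16 were tested, 11 rose and 1 fell, and the median was 0.60. The 11 include IRS1, which passed the filter only through the rapamycin group and so had to differ. Without the replicate block 5 rose and none fell; without pairs 1 and 4 the counts were again 11 and 1. IRS2, an adaptor of the insulin receptor, was 7.69, 7.38, 7.71, 7.86 and 7.6 in vehicle and 8.95, 8.55, 8.9, 8.92 and 8.89 with rapamycin. No treated array came near a control array, and the rise was 1.20 ± 0.08 (adjusted p = 2.71e-10).

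Both receptors of the group rose, IGF1R by 0.97 ± 0.11 and INSR by 0.71. The second adaptor, IRS1, was higher by 0.61. The other IGF1R probe set gave a smaller difference, 0.55. Among FOXO targets, CITED2 rose by 0.93, GADD45A by 0.86, CCNG2 by 0.81, FBXO32 by 0.71, TXNIP by 0.59 and BCL6 by 0.43, and FOXO1 itself by 0.36. TOB1 fell by 0.34. FOXO3 (0.22), KLF4 (0.25), CDKN1B (0.26) and ERBB3 (0.02) did not pass the test.

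Receptors of the ERBB family split. EGFR rose by 0.55 ± 0.10 (adjusted p = 0.000301; 0.0521 without the block), and its other 2 probe sets gave 0.66 and 0.60. ERRFI1, which encodes an inhibitor of EGFR and ERBB2, rose by 1.26 ± 0.08 with no overlap (adjusted p = 2.71e-10), and the ligand HBEGF rose by 0.36. ERBB2 differed by 0.01 (adjusted p = 0.957). In all 3 of 6 tested genes rose.

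Genes induced by the ERK cascade, some of which then restrain it, rose in 11 of 13 tested, with a median of 0.41 and none falling. This ERK feedback list holds CCND1, FOSL1 and ETV5 beside inhibitors such as the DUSP phosphatases. Without the block 3 rose, and after centring 7. DUSP5, a phosphatase of nuclear ERK, was 5.83, 6.4, 6.51, 6.64 and 6.03 in vehicle and 7.19, 8.24, 8.82, 8.55 and 8.13 with rapamycin, a rise of 1.90 ± 0.11 (adjusted p = 3.5e-11) with no overlap. The phosphatases DUSP4 and DUSP6 rose by 1.08 and 1.0, the AP-1 factor FOSL1 by 0.82 and the ephrin receptor EPHA2 by 0.52. CCND1, the cyclin of G1 entry, rose by 0.35 (adjusted p = 0.039), with 0.708 without the block and 0.053 without pairs 1 and 4.

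Immediate-early transcription factors did not move as 1 group: 10 of 14 tested rose and 2 fell, with a median of 0.43 (5 and 0 without the block). ATF3, a stress-induced factor, was 5.35, 5.94, 5.28, 5.46 and 4.54 in vehicle and 6.35, 7.29, 7.35, 7.96 and 6.72 with rapamycin, a rise of 1.82 ± 0.15 (adjusted p = 9.27e-09). KLF6, MAFF and EGR1 rose by 1.49, 1.37 and 1.26. MYC, which drives growth genes, was 9.48, 9.55, 9.5, 9.4 and 9.16 in vehicle and 10.1, 10.14, 10.31, 9.59 and 10.12 with rapamycin. Its groups did not overlap, though treated array 4 lay just above the highest control, and it rose by 0.64 ± 0.08 (adjusted p = 6.09e-06).

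FOS fell by 0.80 ± 0.23 (adjusted p = 0.0167; 0.559 without the block), and its groups overlapped. In vehicle it was 5.49, 4.88, 6.25, 5.98 and 5.36, and with rapamycin 2.87, 3.95, 5.82, 6.15 and 5.18. Treated arrays 1 and 2 were low and array 4 was above its control. Without pair 1 the difference was -0.35 (adjusted p = 0.149), and with limma's robust variance estimate it was not past the threshold (0.331). BHLHE40 also fell, by 0.43 (0.0578 without pairs 1 and 4), and JUN differed by -0.04.

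Targets of YAP and of serum response factor, genes of matrix and actin, rose in 11 of 15 tested, none falling, with a median of 0.53. The count was 4 without the block and 9 without pairs 1 and 4, and after centring 10 rose and 1 fell. Besides CCN2 they included TAGLN at 1.08, CRIM1 at 0.93 and CCN1 at 0.78, the last with no overlap between groups. LATS2, a kinase that restrains YAP, and AMOTL2, which binds it, rose by 0.63 each. AJUBA (-0.15) and PTPN14 (0.00) did not pass the test.

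Inflammatory signals were mostly too dim to test. Of 21 NF-kB targets with a value 4 passed the filter, and all 4 rose: PTGS2, TNFAIP3, NFKBIA by 0.46 and PLAU by 0.40. PTGS2, TNFAIP3 and PLAU had vehicle means of 4.79, 4.85 and 4.86, below the limit of log2 5. They passed only with rapamycin arrays counted, so the filter favoured rises in this list. TNFAIP3, the A20 protein that ends NF-kB signalling, was 5.05, 5.09, 4.71, 5.06 and 4.32 in vehicle and 6.74, 7.2, 6.64, 7.46 and 5.57 with rapamycin (1.88 ± 0.13, adjusted p = 3.03e-10), with no overlap. Without the block PTGS2 and TNFAIP3 alone passed. The 6 tested interferon-stimulated genes differed by -0.07 to 0.13, and none passed the test.

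**Figure D3:**
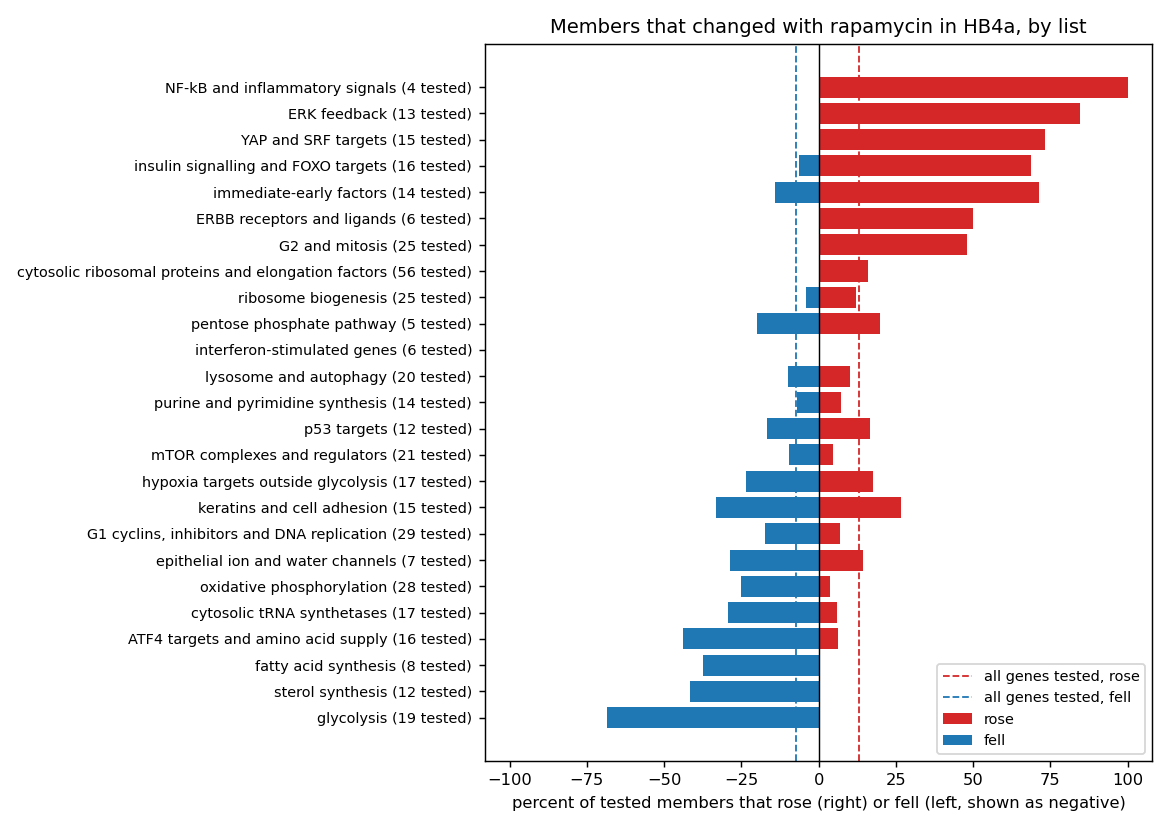
Bars give the percent of each list's tested members that rose (right) or fell (left) with rapamycin in HB4a, with the number tested beside the name, and dashed lines give the same for all 5571 genes, 13.2% and 7.29%. Signalling lists stand at the top and glycolysis, with 13 of 19 falling, at the bottom; bars of lists with few members rest on few genes.

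Of the 25 pathway lists, glycolysis had the highest share of tested members that fell. Of 19 tested genes 13 fell, none rose and all 19 had a mean difference below 0, with a median of -0.31. Without the block 6 fell, and without pairs 1 and 4, 11. HK2, which phosphorylates glucose at the first step, was 6.46, 6.42, 6.22, 6.72 and 6.5 in vehicle and 5.62, 5.27, 5.38, 5.49 and 5.38 with rapamycin. The groups lay well apart, and the difference was -1.03 ± 0.10 (adjusted p = 1.3e-07). PFKFB4, which makes the activator of phosphofructokinase, fell by 1.04 ± 0.11, also with no overlap.

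Genes of later steps also fell. LDHA, which reduces pyruvate to lactate, fell by 0.46 ± 0.05 (adjusted p = 4.53e-07), TPI1 by 0.42, PGAM1 by 0.41 and PKM by 0.65, each with no overlap between groups. GAPDH fell by 0.20, and its adjusted p was 0.052 without pairs 1 and 4. The glucose carrier SLC2A1 (-0.16), PFKL (-0.12) and LDHB (-0.01) did not pass the test.

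**Figure D4:**
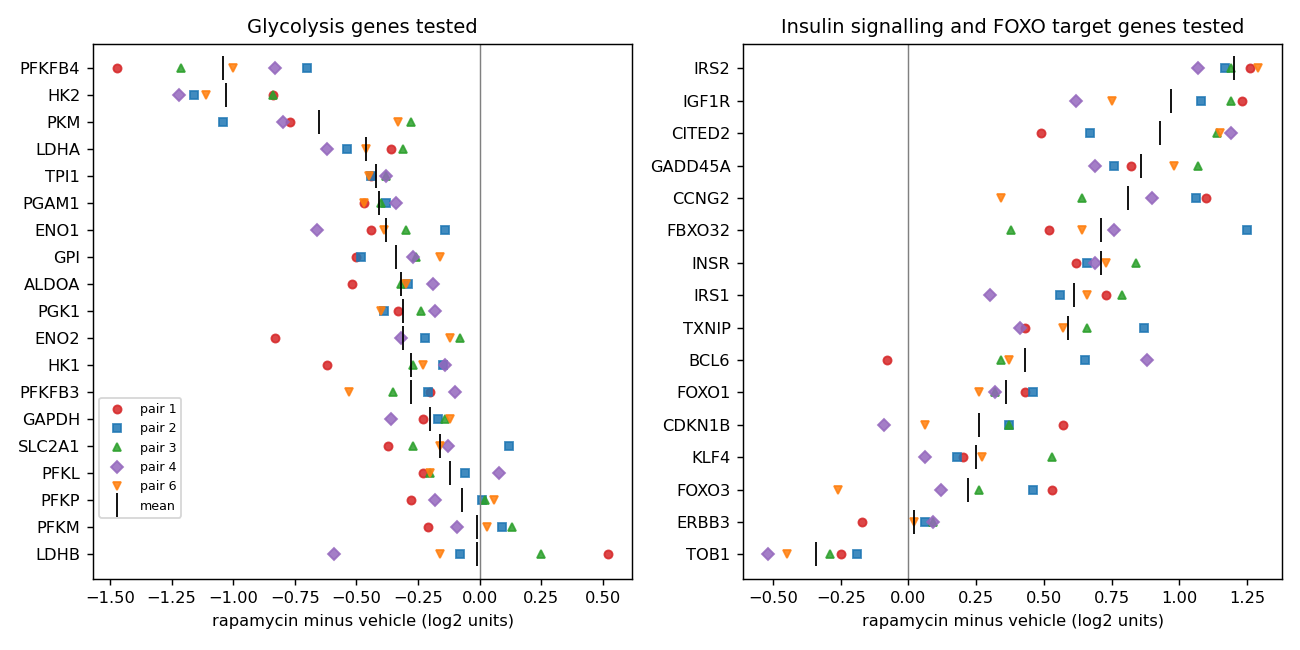
Each point is the rapamycin minus vehicle difference of 1 experiment, in log2 units, for all 19 tested glycolysis genes (left) and all 16 tested insulin signalling and FOXO target genes (right), and the black bar is the mean. The means on the left are all below 0, from -1.04 to -0.01, and on the right 15 of 16 are above 0.

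Hypoxia targets outside glycolysis were mixed, with 3 of 17 tested rising and 4 falling, the former near the 13.2% of all genes. The carbonic anhydrase CA12 fell by 0.52, BNIP3, P4HA2 and LOX by 0.47, 0.41 and 0.41, while EPAS1 rose by 0.41 and MXI1, an antagonist of MYC, by 0.60. HIF1A rose by 0.49 (adjusted p = 0.000835), with 0.418 without the block and 0.0855 without pairs 1 and 4. VEGFA differed by -0.20 and did not pass the test. After centring 8 fell.

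Lipid synthesis genes that moved fell. Of 12 sterol synthesis genes tested 5 fell and none rose (median -0.21), namely DHCR7 by 0.57, ACAT2 by 0.56, EBP by 0.52, LSS by 0.42 and SQLE by 0.34, and none of them passed without the block. Of 8 fatty acid genes 3 fell. SCD, the desaturase that makes oleate, was 7.25, 7.09, 7.63, 7.78 and 7.65 in vehicle and 5.89, 6.33, 6.71, 6.63 and 6.59 with rapamycin, a fall of 1.05 ± 0.10 with no overlap (adjusted p = 8e-08). ACACA and ACSL1 fell by 0.32 and 0.36, but SCD alone remained without pairs 1 and 4 or without the block. The regulators SREBF1 (3.95 and 3.55) and SREBF2 (4.30 and 4.36) did not pass the filter.

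Genes of amino acid supply fell in part. Of 16 tested genes on the list of ATF4, its targets and amino acid supply, 7 fell and 1 rose, with a median of -0.24. Without pairs 1 and 4 the counts were the same. SLC3A2 and SLC7A5, the 2 chains of the large neutral amino acid carrier, fell by 0.51 and 0.40, the asparagine synthetase ASNS by 0.49, and the serine enzymes PHGDH and PSAT1 by 0.46 and 0.45. Of these ASNS alone passed without the block. SLC38A2, a carrier of glutamine and alanine, rose by 1.06 (adjusted p = 2.85e-06; 0.167 without the block), and ATF4 differed by 0.05. Of 17 cytosolic tRNA synthetases 5 fell, VARS1 most at -0.50, and EPRS1 rose (0.179 without pair 1 and 0.107 with the robust estimate, both adjusted p). None passed without the block, 2 fell and none rose without pairs 1 and 4, and 8 fell after centring.

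The machinery of translation changed little. Of 56 tested ribosomal protein and translation factor genes 9 rose and none fell, with a median of 0.05, a share of rises near the 13.2% of all genes. After centring 4 rose and the median was -0.00, and none passed without the block. EIF3E had the largest rise, 0.44. Of 25 ribosome biogenesis genes 3 rose and 1 fell: NOP58, DDX21 and NPM1 rose by 0.60, 0.50 and 0.33 and NOP16 fell by 0.44. NOP58 and DDX21 did not pass without pairs 1 and 4 (adjusted p = 0.124 and 0.28). In oxidative phosphorylation 7 of 28 fell, by 0.34 at most, and COX6C rose by 0.36; without pairs 1 and 4, 2 fell.

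Lysosome and autophagy genes, which mTORC1 holds down through the factor TFEB, did not rise as a group. Of 20 tested 2 rose and 2 fell, with a median of 0.07 (1 and 4 after centring, 4 and 2 without pairs 1 and 4), and both rises have a limit. GABARAPL1, which coats autophagosomes, was 4.09, 4.61, 4.35, 4.65 and 4.66 in vehicle and 5.32, 5.45, 5.46, 5.72 and 5.5 with rapamycin, a difference of 1.02 ± 0.11. No vehicle array exceeded the filter of log2 5, so this gene was tested only because it was higher with rapamycin. CTSB rose by 0.25 (adjusted p = 0.0448), but limma gave 0.458 without the block and 0.0873 to 0.187 without pair 2, 3, 4 or 6. GLA and ATP6V0D1 fell by 0.38 and 0.43, and SQSTM1 (0.13) and MAP1LC3B (-0.01) did not pass the test.

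Of 25 tested genes of G2 and mitosis 12 rose and none fell, with a median of 0.22, and 12 rose without pairs 1 and 4. None passed without the block, where limma gave TOP2A an adjusted p of 0.167, and after centring 9 rose and 1 fell. TOP2A, the topoisomerase that doxorubicin poisons, was 5.24, 3.94, 4.99, 4.86 and 5.4 in vehicle and 7.05, 4.82, 6.45, 5.92 and 5.87 with rapamycin. It rose within every pair by 1.14 ± 0.14 on average (adjusted p = 3.64e-06), but the groups overlapped because array 2 was low in both. DLGAP5, CDK1 and ANLN rose by 0.94, 0.87 and 0.81 (ANLN with an adjusted p of 0.0518 under the robust estimate), whereas MKI67 (0.04) and CCNB1 (-0.18) did not pass the test.

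Of 29 genes of G1 and DNA replication 2 rose and 5 fell, and 10 fell after centring. Without pairs 1 and 4, 1 rose and 2 fell, and none passed without the block. CDKN1A, the inhibitor p21, was 8.61, 8.67, 8.61, 7.93 and 7.67 in vehicle and 7.47, 8.12, 7.73, 7.84 and 7.61 with rapamycin. It fell by 0.55 ± 0.12 (adjusted p = 0.00234; 0.252 without the block, 0.0627 without pair 1 and 0.0704 with the robust estimate), and treated and control arrays overlapped, with little difference in experiments 4 and 6. CDKN1C fell by 0.66 and CDC6, a licensing factor, by 0.55 (0.129 without pairs 1 and 4). PRIM1, a primase subunit, rose by 0.76. Among 12 tested p53 targets 2 rose and 2 fell, with a median of 0.00.

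Keratins moved in both directions. Of 15 keratin and adhesion genes tested 5 fell and 4 rose. KRT5, the keratin of basal breast cells, was 9.9, 10.25, 10.09, 10.01 and 10.09 in vehicle and 8.6, 9.1, 9.26, 8.96 and 9.37 with rapamycin, a fall of 1.01 ± 0.08 with no overlap (adjusted p = 2.46e-09). KRT15 and the luminal keratin KRT19 fell with it, by 1.45 and 0.74, as did SFN by 0.53. KRT80, ITGB4, LAMB3 and KRT7 rose by 0.40, 0.37, 0.35 and 0.20. Without the block KRT15, KRT5 and KRT19 alone passed. The luminal factor GATA3 rose by 0.53, and in bulk RNA fewer cells of a type and less RNA per cell cannot be told apart.

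The same addition of rapamycin was also measured on 10 other HB4a arrays, 5 with doxorubicin and 5 with both drugs. They were fitted without a block, because 1 of the 5 same-number correlations was negative (-0.37 in experiment 2). In that fit 65 genes were higher (1.14%) and 79 lower (1.38%) with both drugs, 2.52% of 5719 tested. Of the 1142 genes above 1058 were tested there, and 1041 (98.4%) had the same sign, against 81.3% of the 5357 genes tested in both. Of the 144, 125 were also among the 1142 with the same sign, which is 86.8% of the former and 10.9% of the latter. These shares set unlike fits side by side. The 1142 were called with the replicate block and the 144 without it, where rapamycin alone gave 105. The 144 fell to 91, 66, 63 and 58 without doxorubicin array 2, 3, 4 or 6, and to 82, 72 and 94 without the array of both drugs numbered 2, 4 or 6. With a replicate block there were 583.

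Values for the genes above in the presence of doxorubicin follow. CCN2 was higher by 2.02 ± 0.21 (adjusted p = 0.000123), IRS2 by 0.94 ± 0.11 (0.00035) and EGR1 by 1.62 ± 0.26 (0.00338), and HK2 was lower by 1.17 ± 0.13 (0.000174) and DDIT4 by 1.55 ± 0.22 (0.00115). PTGS2 was higher by 1.43 ± 0.30 and ATF3 by 0.94 ± 0.19, where ATF3 started from 7.07 with doxorubicin against 5.31 in vehicle. CDKN1A, at 10.05 with doxorubicin, was lower by 0.39 ± 0.09 (adjusted p = 0.0253). FOS differed by 0.26 and TOP2A by 0.99, neither passing the test. Whether these differences changed with doxorubicin was not tested.

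**Figure D5:**
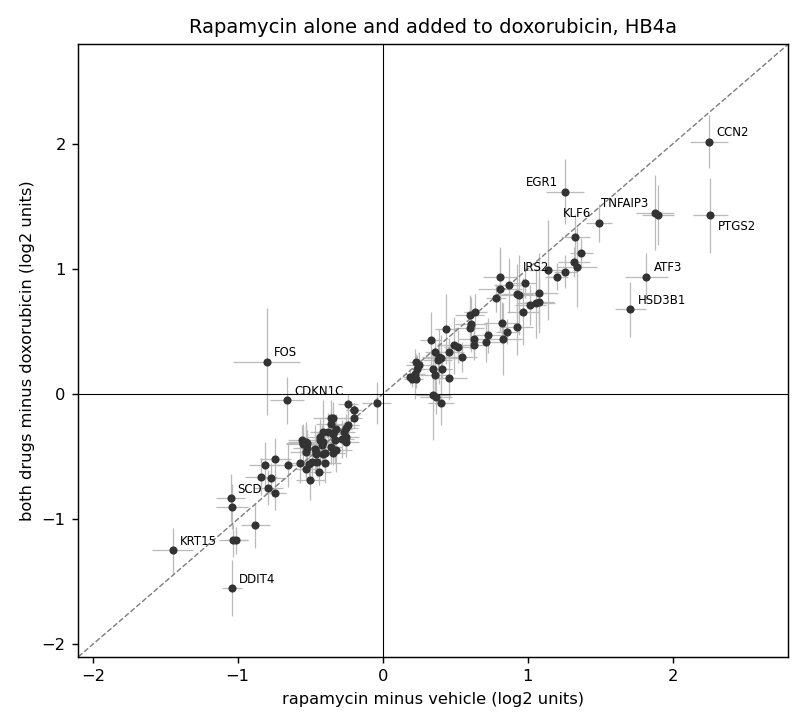
Each of 127 named genes is placed by its rapamycin minus vehicle difference (horizontal) and its both drugs minus doxorubicin difference (vertical), in log2 units, with bars of 1 standard error and a dashed line of equal values. Genes that rose lie mostly to the upper right and genes that fell to the lower left; FOS, at -0.80 and 0.26, lies farthest above it among the falls, and HSD3B1, at 1.71 and 0.68, below it among the rises.

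The response was compared with those of the other lines by the difference of differences, with the pair of each line as the block. Against C5.2, 124 of 6432 genes differed (1.93%), but none without the block, where limma gave 286 genes an unadjusted p under 0.05 (4.45%). That count moved with single pairs, to 553 without HB4a pair 1, to between 35 and 80 without each of the other HB4a pairs, and to between 33 and 80 without C5.2 pair 2, 3, 4 or 6. Against SKBR3, 1565 of 6732 differed (23.2%). Without the block 248 did. Of the 30 leading genes of HB4a 7 differed in C5.2 and 27 in SKBR3, in all cases with the smaller or opposite value outside HB4a. These genes were chosen for their size in HB4a, which favours that direction. Without the block none differed in C5.2 and 13 in SKBR3, and without the HB4a pairs 1 and 4 the counts were 4 and 24. In C5.2 vehicle 6 of the 30 stood below log2 3, 2 of them among the 7 that differed. In SKBR3 vehicle 7 of the 30 did, all of them among the 27. Across 13 genes above log2 9 in HB4a vehicle and below 3 in SKBR3, SKBR3 vehicle array 3 had a median of 5.21 and the other 4 had 1.06 to 1.58. Without that pair 26 of the 30 differed.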

How the data were processed

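The 60 arrays were Affymetrix U133 Plus 2 arrays of total RNA, and the 10 of HB4a with vehicle or rapamycin were compared. The authors deposited 1 table of log2 signals made with RMA, per the submitters' processing notes, which give no version. The base was not stated, and 2 was taken from the range of -0.6 to 13.08, so every fold printed rests on base 2. Which arrays were normalized together was not given in the sources used here.

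Of 54675 probe sets, 41091 had 1 gene symbol in the platform annotation, 1801 several and 11721 none, and 62 controls were left out. Each of 19775 genes was read from its probe set with the highest mean over the 60 arrays, and genes over log2 5 on at least 5 of the 10 arrays were tested. Some genes were not analysed here. Differences were tested in limma 3.58.1 (R 4.3.3) with eBayes with trend, 2-sided, with Benjamini-Hochberg adjustment over all 5571 genes and a threshold of 0.05, on code tested on simulated data. Python 3.11.15 with pandas 2.3.3 made the tables, and matplotlib 3.10.9 drew the plots.

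The experiment number was a replicate block. The titles give the numbers and the design text speaks of independent experiments. Deviations from the group means of same-numbered vehicle and rapamycin arrays correlated at 0.89, 0.82, 0.69, 0.60 and 0.48 in experiments 1, 2, 3, 4 and 6. Between doxorubicin and both drugs these values were 0.92, -0.37, 0.11, 0.66 and 0.46, not all over 0.1, and no block was used.

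The genes named were the 15 largest rises and 15 largest falls that moved the same way in all 5 pairs, the 6 members of each gene list with the largest changes upward and the 6 downward (fewer where fewer changed), and 13 genes given by name (MTOR, RPTOR, FKBP1A, IRS2, EGFR, CDKN1A, TOP2A, CCND1, MYC, HIF1A, SREBF1, SREBF2 and DDIT4). Other genes were named after their values were seen: list members that did not pass the test, marker genes, further changed members, FOS and EIF5A among the genes of pairs 1 and 4, and those of the closing section. The comparison, lists and motifs were chosen with earlier results of these data known. Alternatives covered the block, arrays in the fit, filter, probe set, scaling, variance model, array weights and arrays left out. A fit with the actin 3' minus 5' signal and one with limma's robust variance estimate were added after seeing the data.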

Additional observations from a re-analysis of the deposited data

Results flagged for a closer look

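In 23 of 306 groups of 5 arrays examined, 1 array lay far from the other 4 for a named gene or quality measure, where chance alone gives about 1 in 20. The groups share the same arrays and are not independent. Of the 23, 8 were on rapamycin array 1 and 9 on array 2 of either group. Rapamycin array 1 was high for AMIGO2 (7.89), DDX21 (7.47), EPRS1 (7.1), HIF1A (10.22) and IRS1 (5.48), and low for CA12 (5.38), RPTOR (3.19) and SREBF2 (3.93). Rapamycin array 4 was low for CDC6 (4.73) and EIF5A (6.38) and high for LATS2 (6.68). The GAPDH 3' minus 5' signal was high on array 4 of both groups, 0.36 in vehicle and 1.67 with rapamycin.

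Array 2 was low in vehicle for COX6C (8.77), ERRFI1 (7.17), FOXO1 (4.36), FOXO3 (6.13) and PRIM1 (4.47), high in vehicle for LAMB3 (8.51), and low with rapamycin for COL1A2 (0.66), FOXO1 (4.82) and IRS2 (8.55). FOXO1 was thus low on array 2 of both groups. Vehicle array 6 was high for PTPRC at 0.71, a leukocyte marker at the bottom of the scale.

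The response differed from that of C5.2 in 7 leading genes by limma's test of the difference of differences. The C5.2 response minus the HB4a response was -1.18 for HSD3B1, -1.01 for CCN2, -0.98 for INHBA, -0.84 for TNFAIP3 and -0.64 for EDN1 among the rises, and 0.62 for FAM83A and 0.51 for PIR among the falls. HSD3B1 and INHBA stood below log2 3 in C5.2 vehicle, at 1.81 and 2.26. None of the 7 passed without the replicate block.

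The response differed from that of SKBR3 in 27 leading genes. All 7 leading genes below log2 3 in SKBR3 vehicle were among them. These were TNFAIP3 (2.87), KRT5 (1.79), INHBA (1.68), HSD3B1 (0.64), TREM1 (0.49), PTGS2 (0.25) and RGCC (0.24). Among the rises, the SKBR3 response minus the HB4a response was -2.47 for PTGS2, -2.22 for TNFAIP3, -1.99 for RGCC, -1.87 for INHBA and RND3, -1.76 for HSD3B1, -1.7 for DUSP5, -1.65 for CCN2 and -1.54 for AMIGO2. It was -1.41 for ATF3, -1.37 for PHLDB2, -1.07 for KLF6, -0.68 for UBALD2 and -0.58 for MAFF. Among the falls it was 1.07 for HK2, 1.03 for RHOB, 0.96 for DANCR, 0.95 for KRT15, 0.9 for TREM1, 0.89 for SCD, 0.82 for KRT5, 0.76 for FAM83A and TRIM16, 0.64 for ADORA2B and PFKFB4, 0.63 for KRT19 and 0.45 for PKIB. Of the 13 genes given by name, TOP2A (-2.55), IRS2 (-1.16), HIF1A (-0.73) and SREBF1 (0.58) also differed. IRS2 was near the bottom of the scale in SKBR3, at 1.49 in vehicle (standard deviation 1.07) and 1.53 with rapamycin. SREBF1 did not pass the filter in HB4a, where it was 3.95 in vehicle, and stood at 8.27 in SKBR3 vehicle. TOP2A rose in HB4a and its own difference in SKBR3 was -1.41.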

How the results depend on the processing

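The 1142 changed genes became 105 with no replicate block, and 196 when all 20 HB4a arrays were fitted without one. They became 1964 with no filter, 1900 with a filter at log2 3, 380 at log2 7, 572 with the mean of all probe sets of a gene, and 89 without vehicle array 1 and rapamycin arrays 1 and 4 and without the block. Fewer or more genes were tested under the filters and with mean probe sets. Leaving out 1 pair gave 696 to 1124. With the actin 3' minus 5' signal 988 changed and with robust variances 1158, both added after seeing the data. The other alternatives stayed within 1.5 times.

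Of 118 changed genes named, 46 passed without the replicate block and 104 without pairs 1 and 4, and none turned its direction under any alternative run. Robust variances ended the calls of FOS, EIF5A, EPRS1, CDKN1A and ANLN. Prior degrees of freedom ran from 6.29 without pair 1 to 68.9 without pair 4 and were infinite without pair 6, so adjusted p values of these fits differ in how they weigh a gene's own spread. Calls lost without 1 pair were DDX21, EIF5A, EPRS1, NOP58, NPM1, FOS and CDKN1A (pair 1), BCL6 and PLAU (pair 2), KRT7 (pair 3), CCND1 and DCN (1 or 3), FOXO1 (2 or 3), ACSL1 (2 or 6), TOB1 and ITGB4 (3 or 6), HBEGF, SRF and VIM (2, 3 or 6), ACACA (1, 2 or 4), SQLE (1, 2, 3 or 4) and CTSB (2, 3, 4 or 6).

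Rapamycin added to doxorubicin gave 144 genes, 583 with a replicate block, 90 with no filter, 92 without the variance trend, and 58 to 166 without 1 array. The difference from C5.2 held 124 genes, 0 with no replicate block, and 33 to 553 without 1 pair. That from SKBR3 held 1565, 248 with no replicate block, 580 with a filter at log2 7, and 1167 to 1814 without 1 pair. The cause of these shifts was not tested. With 5 arrays a group, genes dimmer than log2 5 were not tested.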

Other observations

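The following genes changed by 2-fold or more and were named after their values were seen. PIM1, a kinase of growth and survival, was 5.76, 6.08, 5.64, 5.93 and 5.78 in vehicle and 6.82, 7.31, 6.81, 7.12 and 6.96 with rapamycin in experiments 1, 2, 3, 4 and 6. Its pair differences lay between 1.06 and 1.23, and it rose by 1.16 ± 0.09 (SE, n = 5 pairs; limma, adjusted p = 5.05e-09).

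TRIB1, a pseudokinase, rose by 1.24 ± 0.12, with pair differences of 0.55 to 1.73, and the transcription factor FOXQ1 by 1.16 ± 0.12, with pair differences of 0.48 to 1.54. The groups of both did not overlap, and in both pair 1 gave the smallest difference. The adhesion molecule ALCAM rose by 1.16 ± 0.11 within pairs (limma, adjusted p = 1.3e-07), but its groups overlapped and its adjusted p was 0.11 without the replicate block. It was 4.36 on vehicle array 2 and 5.49 to 5.98 on the other vehicle arrays.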
